A study of Homo sapiens with 3 samples.

Results

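H3K9me3 regions flanking the centromeres of 21 autosomes were examined in Jurkat, a leukaemic human T cell line. The deposited regions were included when their midpoint lay within 5 Mb of a listed hg19 centre. The window ran on along the long arm on chromosome 1, where it spans 28 Mb in all, and to 71 Mb on chromosome 9 and 48 Mb on chromosome 16. Chromosome 19 was not among the 21. This selected 2631 of 54116 regions, of which 1332 of 26938 came from the control library and 1299 of 27178 from the CXCL12 library. Both groups were kept without serum for 90 min. The CXCL12 group then received the chemokine CXCL12, which acts through the receptor CXCR4, at 100 ng/ml for 15 min, and the control group was left untreated. Each group is 1 library from the same cell line, immunoprecipitated from 30 µg of fixed chromatin, and the input library was not analysed here. No difference between the libraries therefore has a replicate check, and no p-value is given.

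Trimethylation of lysine 9 on histone H3 is written by SUV39H and SETDB1 enzymes and is bound by HP1 proteins, which compact chromatin. Around centromeres the mark covers satellite repeats, where it helps to keep repeats silent and sister chromatids together. The flanks of the satellite arrays are rich in recent duplications, pseudogenes and clusters of KRAB zinc finger genes, which encode repressors that recruit SETDB1 to retroelements. The satellite arrays themselves are largely unplaced in hg19, so the regions listed here describe the flanks and not the arrays.

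The zinc finger genes beside the centromere of chromosome 7 carried some of the longest H3K9me3 loci of the windows. The promoters of ZNF716, ZNF680 and ZNF107 are shown. For each gene the deposited list has a locus of both libraries with an annotated promoter and no other gene. ZNF138, ZNF735 and ZNF273 meet this too and are not printed, and ZNF273 did not have a single promoter entry. Whether the printed bases lie under a region was not checked, and the shared ZNF716 locus is listed as upstream of the gene. The sequences come from RefSeq, build GRCh38.p14, and hold 250 bases before and 50 after the gene start, with every CG dinucleotide in capitals.
ZNF716, chr7:57449927-57450226, plus strand: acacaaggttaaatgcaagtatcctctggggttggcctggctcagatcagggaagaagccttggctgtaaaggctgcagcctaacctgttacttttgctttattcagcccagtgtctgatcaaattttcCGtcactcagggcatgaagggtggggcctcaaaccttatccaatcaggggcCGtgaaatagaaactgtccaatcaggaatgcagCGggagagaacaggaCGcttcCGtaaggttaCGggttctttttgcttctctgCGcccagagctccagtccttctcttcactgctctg
ZNF680, chr7:64563022-64563321, minus strand: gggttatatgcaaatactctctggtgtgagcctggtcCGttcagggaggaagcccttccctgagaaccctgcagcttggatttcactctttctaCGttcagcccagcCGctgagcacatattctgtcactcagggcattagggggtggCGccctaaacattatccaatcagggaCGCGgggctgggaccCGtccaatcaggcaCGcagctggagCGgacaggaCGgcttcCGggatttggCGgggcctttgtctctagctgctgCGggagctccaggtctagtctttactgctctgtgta
ZNF107, chr7:64665883-64666182, plus strand: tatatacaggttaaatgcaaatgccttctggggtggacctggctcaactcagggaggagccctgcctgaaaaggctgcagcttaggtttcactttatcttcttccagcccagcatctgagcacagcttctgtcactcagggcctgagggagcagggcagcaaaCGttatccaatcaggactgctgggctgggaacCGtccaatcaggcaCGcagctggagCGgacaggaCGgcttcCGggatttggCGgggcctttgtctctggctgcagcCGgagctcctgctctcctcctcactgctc

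Several of these promoters are alike in sequence. Those of ZNF107 and ZNF680 were identical at 242 of 292 aligned bases (82.9%), those of ZNF107 and ZNF138 at 246 of 290 (84.8%), and those of ZNF107 and ZNF716 at 220 of 295 (74.6%). Other promoters were not alike: those of ZNF713, ZNF679 and ZNF117 aligned with that of ZNF107 over only 72, 44 and 5 of 300 bases. CG dinucleotides, a palindrome that reads the same on both strands, numbered 7 for ZNF716, 13 for ZNF680 and 8 for ZNF107. The median of all 35116 promoters was 14 CG, and 96.0% of them held at least 1. At least as many CG as in these promoters occurred in 63.2%, 51.7% and 60.7% of all promoters, respectively. Of the 9 zinc finger genes of this window with a single promoter entry, 8 had at most 14 CG, from 0 at ZNF679 to 13 at ZNF138 and ZNF680, while ZNF713 had 26.

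MicroRNA genes were annotated at these regions too, and RefSeq held the mature sequence of all 7, shown to tell single genes from copies. Bases 2 to 8, the seed that pairs with targets, are in capitals.
MIR3147, chromosome 7: gGUUGGGCagugaggaggguguga
MIR4283-2, chromosome 7: uGGGGCUCagcgaguuu
MIR548U, chromosome 6: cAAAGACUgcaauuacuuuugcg
MIR1299, chromosome 9: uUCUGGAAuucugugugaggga
MIR3118-1, MIR3118-2 and MIR3118-3: uGUGACUGcauuaugaaaauucu

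The 7 genes gave 5 mature sequences with 5 different seeds, since the 3 MIR3118 copies share their mature sequence. The deposited list places all 3 MIR3118 copies on chromosome 1, whereas RefSeq places MIR3118-1 on chromosome 21 and MIR3118-2 and MIR3118-3 on chromosome 15 of GRCh38. Of the 4 MIR3118 hairpins in RefSeq, 3 have the same letters. Reads from such copies can match more than 1 place, and the authors' treatment of them is unknown here. The same limit holds for every duplicated locus named below.

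Pericentromeric H3K9me3 covered 7.69 Mb in control and 7.99 Mb after CXCL12. This was 3.88% more length after CXCL12, in 2.48% fewer regions. The other regions of the same autosomes covered 120.0 Mb and 129.1 Mb, which was 7.59% more length in 1.37% more regions. The called length was larger after CXCL12 on 15 of 21 chromosomes within the windows and on 21 of 21 outside them. On 14 of 21 the ratio inside the window was below that of the rest of the chromosome. In control the median pericentromeric region measured 3600 bp, with quartiles of 2200 and 6400 bp. CXCL12 regions had a median of 4000 bp, with quartiles of 2400 and 6800 bp. The medians elsewhere on these autosomes were 4000 bp for control and 4400 bp for CXCL12.

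Signal per region was slightly higher near the centromeres than elsewhere, in both libraries. Signal is the authors' value per bin, a stretch of about 32.9 bp, and the depth of the libraries is unknown. Mean signals of single regions had a median of 5.46 in control (95% order-statistic interval 5.29 to 5.63) and 5.44 after CXCL12 (5.29 to 5.61). Elsewhere on the same autosomes it was 5.06 (5.03 to 5.08) and 5.10 (5.07 to 5.13). The pericentromeric median was above that of the rest of its own chromosome on 16 of 21 chromosomes in control and on 14 after CXCL12. These intervals cover the spread over regions of a library, and neighbouring regions are not independent. Without chromosome 7, a choice made after seeing the data, the medians were 5.36 and 5.36 near the centromeres and 5.05 and 5.10 elsewhere.

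Chromosome 7 held more pericentromeric H3K9me3 than any of the other 20 chromosomes. It carried 2190 kb in control and 2257 kb after CXCL12, which is 28.5% and 28.3% of the pericentromeric length of the 2 libraries. Chromosome 10 followed with 775 and 779 kb, chromosome 16 with 607 and 632 kb, and chromosome 12 with 530 and 513 kb. Chromosome 15 had the least, 44.8 and 31.6 kb, below chromosome 9 with 74.4 and 68.4 kb. The windows differ in size, and per Mb of window chromosome 9 had the least, 2.75 and 2.52 kb, against 4.48 and 3.16 kb on chromosome 15. Chromosome 12, with 53.0 and 51.3 kb, and chromosome 20, with 40.1 and 41.8 kb, then passed chromosome 16, with 37.5 and 39.0 kb. These values divide by the whole window, which on chromosome 9 includes a stretch of 20.7 Mb without a region. How much of each window is placed sequence in hg19 was not counted, so the order per Mb may reflect that. Chromosome 9 had few regions, 24 in control and 23 after CXCL12, yet the highest median signal, 7.26 (5.57 to 10.2) and 9.13.

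**Figure D1:**
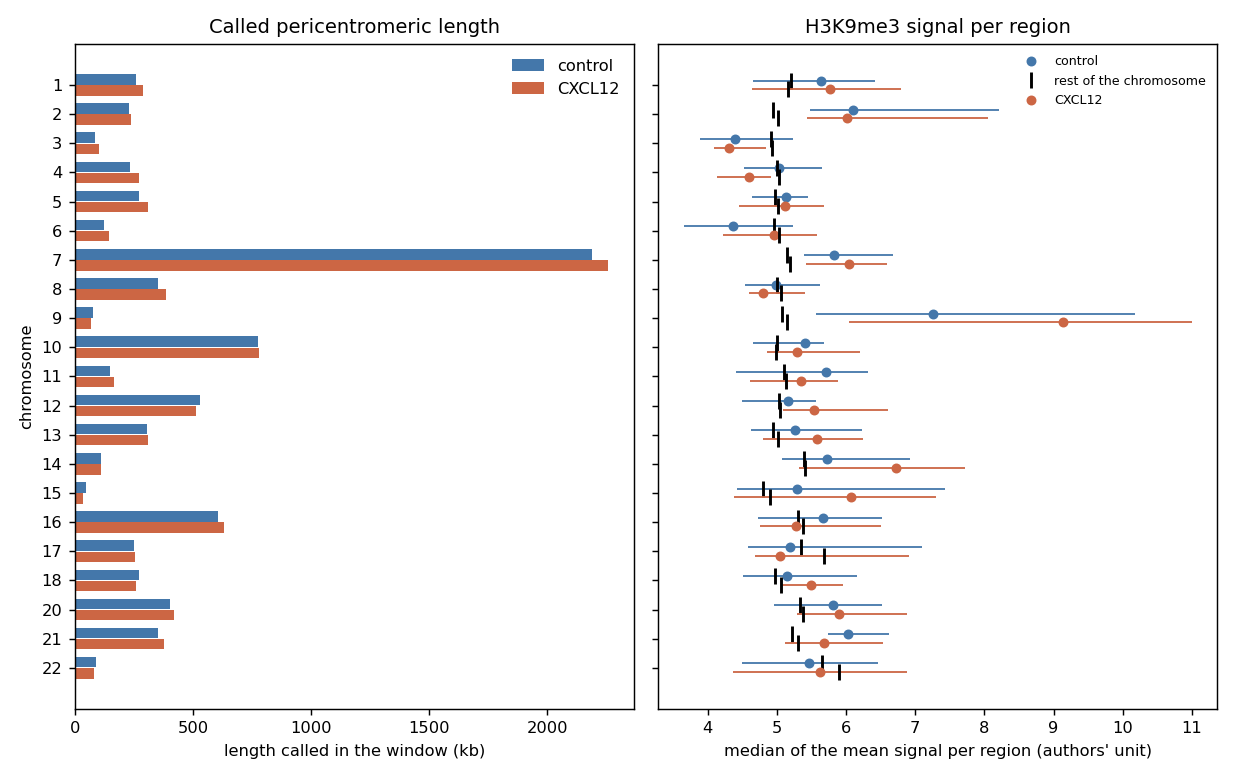
Length called in each pericentromeric window (kb, bars from 0) and median of the mean signal per region (points, with 95% order-statistic intervals as lines) for 21 autosomes in the control and CXCL12 libraries; black ticks mark the median of the other regions of that chromosome. Chromosome 7 stands at 2190 and 2257 kb, and chromosome 9 has the highest medians, 7.26 and 9.13.

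What lay under the mark also differed in the counts between these windows and the rest of the same autosomes. A gene body was annotated at 21.8% of pericentromeric control regions (exact binomial interval 19.6 to 24.1%) and 23.7% of CXCL12 regions, against 34.8% and 34.7% elsewhere. CpG islands were annotated at 8.63% (7.18 to 10.3%) and 8.47% (7.01 to 10.1%), against 3.67% (3.43 to 3.92%) and 3.49% (3.26 to 3.73%) elsewhere. Without chromosome 7 the shares near centromeres were 7.38% and 7.11%. Promoters were annotated at 9.76% and 9.93% of regions, against 7.48% and 7.33%. These intervals cover counting error only, and the counts were not tested. Over the whole list, gene bodies were annotated at 33.7% and 33.7% of regions, CpG islands at 4.34% and 4.12%, and promoters at 8.29% and 8.10%. The comparison leaves out the chromosomes outside the 21, chromosome 19 among them, and whether they share these traits was not examined. How many genes, islands and promoters lie in the windows was not counted.

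Many of the CpG islands under pericentromeric H3K9me3 lay outside annotated genes and their flanks. Of 117 pericentromeric loci with a CpG island, 61 (52.1%) had no annotated gene, against 225 of 963 (23.4%) elsewhere. Loci without an island had no annotated gene in 826 of 1293 cases (63.9%) near centromeres and in 55.6% elsewhere. A locus is a chain of regions of either library that share at least 1 bp, and it is shared when it holds regions of both. The island loci were shared in 111 of 117 cases (94.9%, interval 89.2 to 98.1%), while pericentromeric loci without an island were shared in 891 of 1293 (68.9%). Elsewhere on the same autosomes the shares were 85.4% with and 73.2% without an island. The median signal of shared island loci was 9.18 in control and 8.80 after CXCL12, against 5.60 and 5.65 at shared loci without an island. Elsewhere the median at shared loci was 7.56 and 7.61 with an island, against 5.23 and 5.36 without. Shared island loci were also longer, with a median of 7400 bp against 5200 bp without an island near centromeres. Elsewhere these medians were 8000 and 5600 bp. Loci of like length were not compared.

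Both very long and very short regions were more frequent near centromeres than elsewhere on the same autosomes. Regions of at least 20 kb made up 3.98% (2.99 to 5.17%) and 4.16% of the pericentromeric regions of control and CXCL12, and 1.16% and 1.35% of regions elsewhere. They held 25.7% of the pericentromeric length in each library, against 7.76% and 8.24% elsewhere. Without chromosome 7 they made up 2.19% and 2.15% of the regions and held 14.1% and 13.6% of the length. Of the 53 and 54 regions of this length, 29 and 31 lay on chromosome 7. Regions of at most 600 bp made up 3.30% (2.41 to 4.41%) and 2.08% (1.37 to 3.01%), against 0.790% and 0.444% elsewhere. Without chromosome 7 these shares were 2.64% and 1.40%, against 0.785% and 0.440%. Over the whole list, regions of at least 20 kb made up 1.86% and 2.02% of regions and held 13.6% and 13.9% of the length. Those of at most 600 bp made up 0.961% and 0.548%. Chromosomes outside the 21, chromosome 19 among them, were not compared, so these lengths are not shown to be particular to centromeres. The length limits were chosen after seeing the data.

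**Figure D2:**
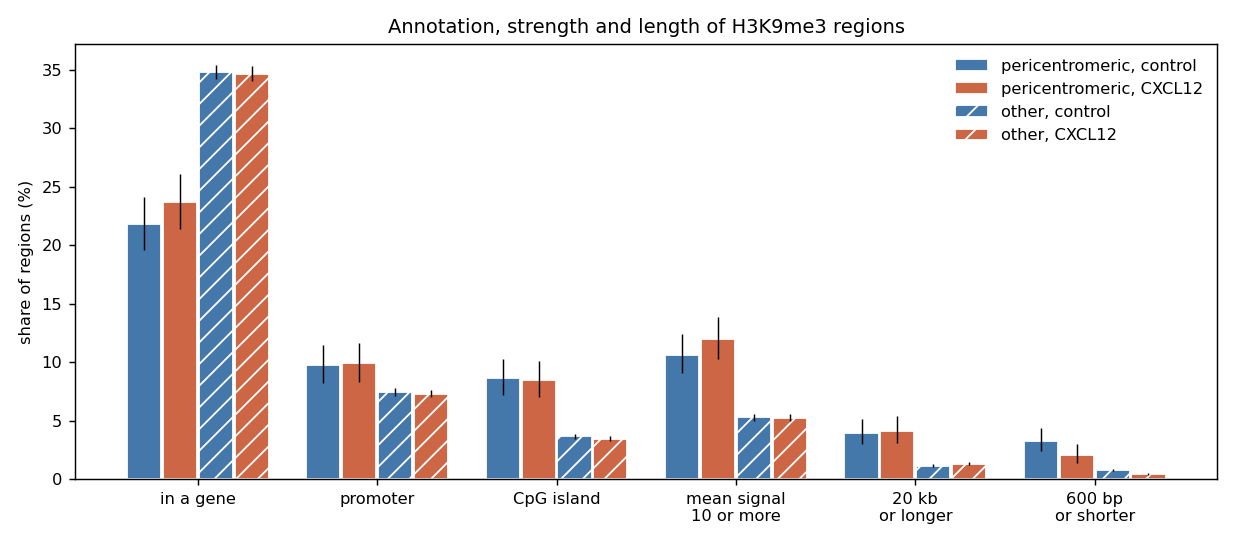
Share of H3K9me3 regions (%, bars from 0, with exact binomial 95% intervals) with a given annotation, signal or length, for pericentromeric and other regions of the same 21 autosomes in both libraries. Gene bodies were annotated at 21.8% and 23.7% of pericentromeric regions and at 34.8% and 34.7% of the others, and CpG islands at 8.63% and 8.47% against 3.67% and 3.49%.

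The short regions held some of the higher mean signals. A mean signal of at least 10 was found in 11 of 44 control and 16 of 27 CXCL12 regions of at most 600 bp near centromeres, against 17 of 186 and 12 of 106 elsewhere. The strongest lay beside FAM27C, a member of a duplicated family of chromosome 9 transcripts, at chromosome 9, 44993000 to 44993399. Over its 400 bp the control had 19.7 and CXCL12 20.8, with highest bins of 33 and 35. A gene-free 600 bp region at chromosome 2, 98106600 to 98107199, had 17.9 and 18.2.

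No region of either library lay within 1 Mb of a listed centre. The nearest was 1.46 Mb away, on the long arm of chromosome 12. The stretch without regions around the centre had a median of 3.57 Mb over the chromosomes with regions on both sides, from 3.05 Mb on chromosome 17 to 21.3 Mb on chromosome 1. Chromosome 9 had an empty stretch of 20.7 Mb and chromosome 16 one of 11.3 Mb, and these 3 chromosomes are known for large satellite blocks on the long arm. The short arm side of the window held no region on 4 chromosomes, 13, 14, 15 and 22, all acrocentric. Satellite arrays are largely unplaced in hg19, and no region can be called in unplaced sequence. The empty stretches therefore do not show that the mark is absent there. How much of each stretch is unplaced was not counted.

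From 1 to 5 Mb the median signal per region changed little with distance. In control it was 5.18 between 1 and 2 Mb, 5.30 between 2 and 3 Mb, 5.65 between 3 and 4 Mb and 5.45 between 4 and 5 Mb, with intervals that overlapped between neighbouring steps. Weighted by bins, so that long domains count more, the mean was 9.12 in control and 9.03 after CXCL12 between 1 and 2 Mb, and 7.50 and 7.52 between 3 and 4 Mb. The short arm carried the higher values of the innermost step, with 10.2 and 10.0 against 7.23 and 7.28 on the long arm. These innermost values rest on 1 locus, at BAGE and BAGE3 on chromosome 21: without it, an alternative added after seeing the data, the step had 7.55 and 7.49 and its short arm side 7.75 and 7.63. Beyond 5 Mb, on chromosomes 1, 9 and 16 together, 69 control and 73 CXCL12 regions had medians of 6.37 and 6.05. At the outer limits of the windows, the 162 control regions in the last 0.5 Mb inside had a median of 5.28 and the 131 in the next 0.5 Mb outside one of 5.15. After CXCL12 these were 169 regions at 5.28 and 137 at 5.11.

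**Figure D3:**
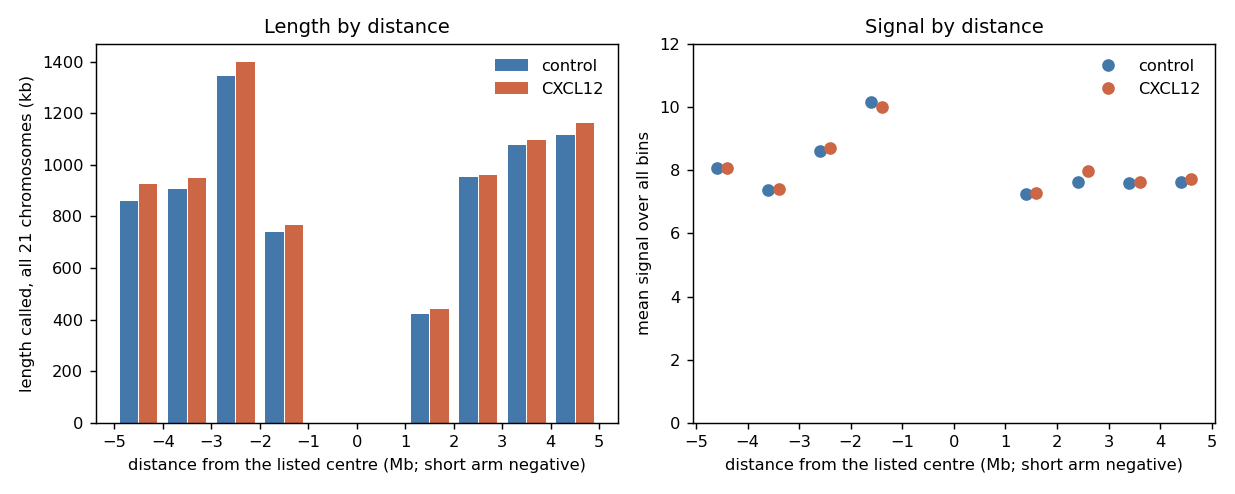
Length called (kb, bars from 0) and mean signal over all bins (points) against the distance from the listed centre in steps of 1 Mb, over 21 chromosomes, without the extended parts of chromosomes 1, 9 and 16. No region lies within 1 Mb of a centre, and the innermost short arm step has the highest bin-weighted signal, 10.2 in control and 10.0 after CXCL12, or 7.75 and 7.63 without the locus at BAGE and BAGE3. Sequence unplaced in hg19 cannot hold a called region.

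On chromosome 7 the mark was called on both flanks of the centromere, over 219 kb per Mb of window in control. The short arm side held 964 kb in control and 1029 kb after CXCL12, and the long arm side, from 62462000 to 64511199, held 1225 and 1228 kb. Near this centromere, 55.0% of the length in control and 56.5% after CXCL12 lay in regions of at least 20 kb. The longest locus spanned 158.2 kb at chromosome 7, 57322200 to 57480399, around MIR3147, whose mature sequence is printed above. The mean over this locus was 13.9 (control) and 14.1 (CXCL12), and its highest bins were 54 and 68.

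Of the 9 gene lists looked up, zinc finger genes had the most loci. Among all pericentromeric loci, 54 carried at least 1 of 28 zinc finger genes, and 51 of the 54 were shared. The shared loci lay on 7 chromosomes, 26 of them on chromosome 7 over 11 genes and 15 on chromosome 10 over 8 genes. On chromosome 7 they covered 584 kb in control and 586 kb after CXCL12. The shared loci of the family had a median signal of 7.13 in control and 7.62 after CXCL12, and a median log2 ratio of CXCL12 to control of 0.06. The ratio was above 0 at 34 of the 51 loci and below 0 at 17, where 57.0% of all 21541 shared loci were above 0. This count was not tested, and several loci can belong to 1 gene. No locus was at least 2-fold apart. The 200 shared zinc finger loci elsewhere on these autosomes had a median log2 ratio of 0.07, and by the highest bin the pericentromeric median was 0.

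The longest zinc finger loci had close values in the libraries. The locus of ZNF107 spanned 98.6 kb at chromosome 7, 64126600 to 64225199, where control had a mean of 9.25 and CXCL12 of 9.19. ZNF727 was covered over 82.0 kb at 63531000 to 63612999 with 13.25 and 13.04, and ZNF680 over 49.6 kb at 63974200 to 64023799 with 9.31 and 9.88. The strongest zinc finger locus lay upstream of ZNF716 at 57494400 to 57503799, with 21.2 in control and 18.3 after CXCL12 and highest bins of 68 and 57. Beside it, at 57505800 to 57539999, a locus of 34200 bp annotated to ZNF716 was called after CXCL12 only, with a mean of 7.66. ZNF479 had 4 loci of at most 4.80 kb with log2 ratios from −0.64 to 0.70, and short loci of ZNF451 and ZNF519 reached 0.66 and 0.68. By the highest bin the ZNF479 ratios lay between −0.49 and 0.19.

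**Figure D4:**
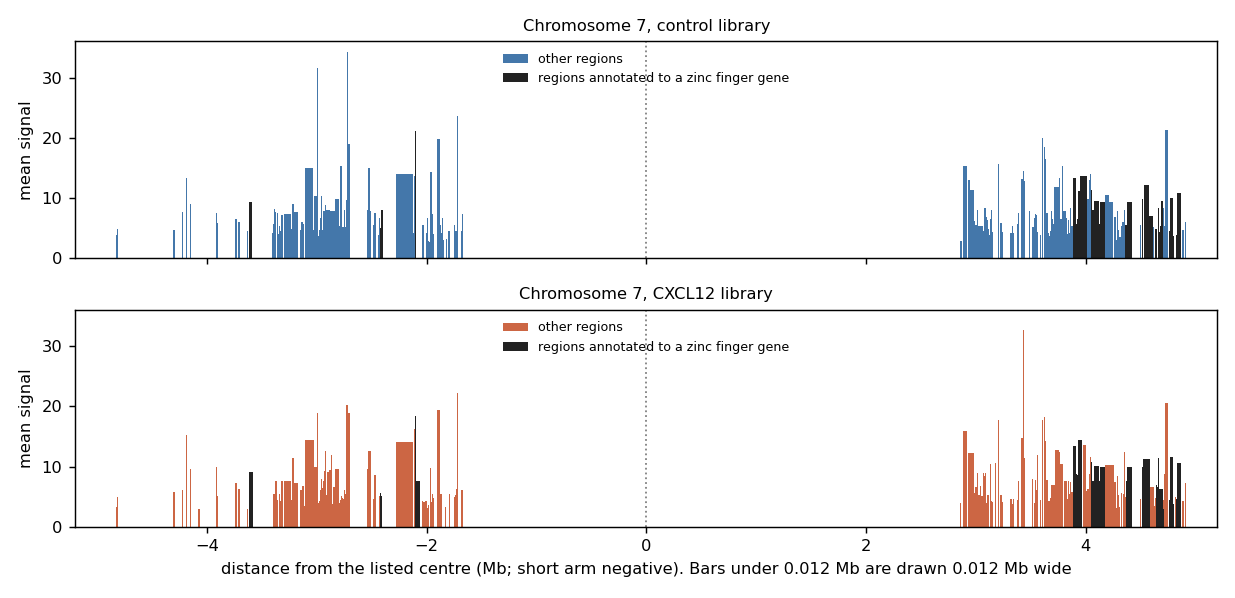
Mean signal of each H3K9me3 region (bar height, from 0; bar width is the region's length, with short regions drawn wider as the axis label states) against distance from the listed centre of chromosome 7 in the control and CXCL12 libraries, with regions annotated to zinc finger genes in black. Both libraries show the same empty centre and dense flanks, with 964 and 1029 kb on the short arm and 1225 and 1228 kb on the long arm. Satellite arrays are largely unplaced in hg19, so the empty centre does not show absence of the mark.

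Chromosome 21 carried the highest single bin of either library's whole list. The locus within LOC100132288, an uncharacterised gene, at chromosome 21, 9885600 to 9917399, reached 178 in control and 194 with CXCL12. Its mean signal was 26.5 and 26.7 over 31.8 kb in both. At the BAGE and BAGE3 genes, members of a tumour antigen family, a locus at 11050000 to 11161799 had a mean of 23.9 and 23.7 and highest bins of 171 and 179. That locus was called as 5 regions in control and 2 after CXCL12. Together with TPTE and TPTE2, a pair of testis phosphatase genes, the BAGE genes had 16 loci, of which 13 were shared, with log2 ratios from −0.72 to 0.69 and a median of −0.01.

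Bins of this height were more frequent near centromeres, a count that was not tested. Of the regions with a bin of at least 100 on these autosomes, 7 of 21 in control and 6 of 26 after CXCL12 were pericentromeric, where 5.36% and 5.16% of all regions of these autosomes lie. They stood on chromosomes 15, 16, 17, 20 and 21 in both libraries and also on chromosome 14 in control. The gene-free locus of chromosome 20, at 29645400 to 29653999, had a mean of 26.3 in control and 28.6 after CXCL12 with highest bins of 113 and 148. On chromosome 16, at 33293600 to 33296799, the mean was 27.1 and 23.6 with highest bins of 129 and 128.

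Other duplicated families known from pericentromeric DNA had few annotated loci, and how many of their genes lie in the windows was not counted. POTE and ankyrin repeat genes had 3 loci, at ANKRD30B and ANKRD36, of which 2 were shared. The NBPF9 and PDE4DIP locus of chromosome 1, at 144838000 to 144845599, had 10.95 in control, with a log2 ratio of 0.01. The FAM27 family had 3 shared loci, with 13.4 in control and 15.6 after CXCL12 downstream of FAM27A. Of the lists looked up, the duplicated genes of chromosomes 15 and 16 and the antigen receptor genes had 0 loci. Olfactory receptor genes of chromosomes 11 and 14 had 15 loci, 11 of them shared, with a median signal of 4.58 and 5.40. Their median log2 ratio was 0.04, above 0 at 6 loci and below 0 at 5, and OR5AK2 had the highest with 8.31 and 7.85. MicroRNA genes had 13 loci and 9 shared ones. At MIR1299 the locus at chromosome 9, 68995000 to 69004199, had 8.81 in control and 10.8 after CXCL12.

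Most pericentromeric loci were called in both libraries. Of 1410 pericentromeric loci, 1002 (71.1%, interval 68.6 to 73.4%) were shared, 215 were found in the control alone and 193 in the CXCL12 library alone. Elsewhere on the same autosomes 19063 of 25872 loci (73.7%) were shared, 3064 were control only and 3745 CXCL12 only. Control-only loci thus made up 15.2% (13.4 to 17.2%) near centromeres and 11.8% elsewhere, and CXCL12-only loci 13.7% (11.9 to 15.6%) and 14.48%. By length the overlap was larger near centromeres, with 6.61 Mb called in both libraries, or 85.6% of the control and 82.4% of the CXCL12 length. Elsewhere these shares were 82.0% and 76.2%.

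Loci of a single library had a median length of 2000 bp and a median signal of 4.12 in control, and of 2200 bp and 3.86 after CXCL12, below the 5400 bp and 5.85 of shared loci. A few were stronger. After CXCL12 only, a 400 bp region at chromosome 2, 90414000 to 90414399, had a mean of 20.7, with a control region 2.60 kb away. In control only, a 10000 bp gene-free region at chromosome 16, 32604600 to 32614599, had a mean of 13.3 with its top bin at 43, and the nearest CXCL12 region was 41.2 kb away. ANKRD30B, an ankyrin repeat gene of chromosome 18, had a 600 bp control-only region with a mean of 11.4, with a CXCL12 region 3.40 kb away.

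The position of the highest bin was close between the libraries. At 845 shared pericentromeric loci with 1 region per library, the highest bins lay a median of 192 bp apart, and 68.9% (65.6 to 72.0%) were within 500 bp. At 17103 such loci elsewhere the median was 288 bp and 62.9% were within 500 bp. Strong loci were closer still, with a median of 64 bp at 95 pericentromeric loci with a signal of at least 10 and 112 bp at 1022 others.

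Signal at shared pericentromeric loci was near-equal with and without CXCL12. The median log2 ratio of mean signal was 0.03 (0.02 to 0.05) over 1002 loci. Its SD over loci was 0.27, and the middle of the distribution ran from −0.13 to 0.17 (quartiles). Over all 21541 shared loci the median was 0.04, and centring on it turned the pericentromeric median to −0.00739. The ratio was above 0 at 568 loci (56.7%) and below 0 at 434, and 57.0% of all shared loci were above 0. At least 2-fold higher signal after CXCL12 was found at 2 loci of 1002, where 0.116% of all shared loci passed the same limit. At least 2-fold lower signal was found at 1 locus, against 0.176% of all shared loci. By the highest bin 4 loci were higher and 1 was lower, against 0.696% and 0.279% of all shared loci. By summed signal 26 (2.59%) were higher and 6 (0.599%) lower, against 2.84% and 0.998%. By called length 55 (5.49%) were longer and 24 (2.40%) shorter, against 5.55% and 2.85%. Over these measures the members' counts lay near the background.

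The few loci past the 2-fold limit were called with unequal length in the libraries. NNT, the mitochondrial transhydrogenase gene of chromosome 5, had 10.9 in control and 5.13 after CXCL12 at 43665600 to 43667599 (log2 ratio −1.08). Its highest bin was 16 in control and 18 after CXCL12, and the region measured 1400 and 2000 bp. Beside the strongest locus of chromosome 9, a locus at 66461400 to 66462399 had 5.00 over 1000 bp in control and 11 over 200 bp after CXCL12 (1.14), with highest bins of 13 and 14. A gene-free locus of chromosome 14, at 20632400 to 20634399, had 4.79 and 9.77 (1.03) over 2000 and 1000 bp.

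The other named ratios also came with unequal lengths. On chromosome 15, at 20544200 to 20552799, the mean was 15.7 over 8600 bp in control and 29.5 over 3800 bp after CXCL12, while the highest bins were 102 and 100. EPHA3, an ephrin receptor gene, had 4.97 and 8.36 over 5000 and 2400 bp. By summed signal both had the other sign, with log2 ratios of −0.25 each. In the opposite direction were H3F3C, a histone H3 variant gene, with 7.41 over 1200 bp and 4.31 over 9000 bp, and TMEM131, a membrane protein gene, with 8.22 over 2200 bp and 4.80 over 5400 bp. By summed signal these also turned, to log2 ratios of 2.03 and 0.50. Of the 10 largest and smallest ratios at or above the median signal, 7 turned. Among them were gene-free loci of chromosome 10 at 38279600 (from 0.91 to −0.11) and chromosome 7 at 56235800 (from −0.77 to 0.34). A gene-free locus of chromosome 7, at 64308000 to 64311199, had 8.37 over 2000 bp and 4.49 over 2800 bp, and there the highest bins also differed, 19 and 10. The 5 largest ratios at or above the median signal all belonged to loci shorter after CXCL12, and the 5 smallest all to longer ones. Across the 1002 loci the ratio of mean signal and the ratio of length were inversely related (Spearman rho −0.63, a description over loci of the same libraries), as they were elsewhere (−0.62). Both ratios use the called length. Where each library had 1 region and the lengths were within 1.2-fold, at 442 loci, 0 were 2-fold apart and the median log2 ratio was 0.05. Elsewhere on the same autosomes 0 of 8466 such loci were 2-fold apart, with a median of 0.06.

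**Figure D5:**
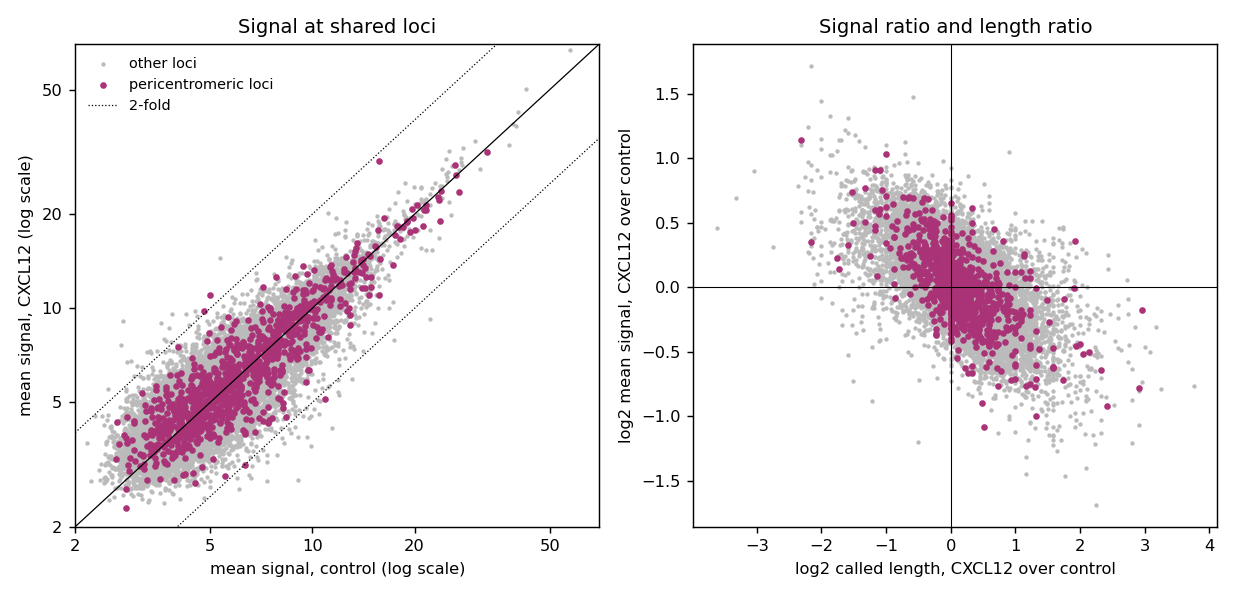
Mean signal in control and CXCL12 at shared loci (left, log axes, the dotted lines mark 2-fold) and log2 ratio of mean signal against log2 ratio of called length (right), for pericentromeric loci and other loci of the same autosomes. Of 1002 pericentromeric loci, 2 lie above and 1 below the 2-fold lines, and the signal ratio runs against the length ratio (Spearman rho −0.63).

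On most chromosomes the interval of this ratio held 0. The median log2 ratio was above 0 on 18 of 21 chromosomes and below 0 on 3, and its interval held 0 on 19. The exceptions were chromosome 12, at 0.14 (0.01 to 0.19) over 52 loci, and chromosome 20, at 0.04 (0.01 to 0.13) over 61 loci. On chromosome 7 it was 0.04 (−0.01 to 0.06) over 174 loci, and on chromosome 16 it was −0.04 (−0.11 to 0.05) over 75. Centred on all shared loci, the interval held 0 on all 21 chromosomes, 12 and 20 included, and the median was above 0 on 10 and below 0 on 11.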

How the data were processed

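The deposited list gives H3K9me3 regions per library, 1 control and 1 CXCL12, each with position, length, signal and annotated genes. Per the submitters' processing notes, the tools were BWA 0.7.12 and SICER 1.1 on hg19. Not given in the sources used here: settings, treatment of multiply matching reads, scaling, and any use of the input. Per the file headers, the authors deposited 2 signal values per region, its mean over bins and its highest bin. Depth is unknown, so signals carry no counting interval. Positions are as deposited, and lengths include both ends.

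Regions were selected by midpoint. Regions of either library sharing at least 1 bp were chained into loci, and log2 ratios of mean signal over all bins, with no pseudocount, exist for shared loci only. Shares carry exact (Clopper-Pearson) 95% binomial intervals and medians exact order-statistic intervals. Code (Python 3.11.15, pandas 2.3.3, scipy 1.17.1) was tested on simulated regions. Promoters were aligned globally with free end gaps. Of 295 symbols at these loci, 229 (77.6%) matched RefSeq, 66 were LOC symbols, and 4 gene entries turned into dates were left out.

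Candidates for naming were the 8 highest signals with a gene and 4 without, the 3 longest, and the 5 largest and 5 smallest ratios among loci with at least the median signal. The 3 highest of each single library and up to 3 per gene list were added. Only some of these candidates are named in the text. Others were named after their values were seen. The windows, the 9 gene lists and these rules were chosen with earlier results of these data known.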

Additional observations from a re-analysis of the deposited data

How the results depend on the processing

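With 1 library per group, separate cultures cannot be told apart from the treatment. Depth is unknown, and whether it bears on which weak regions were called in each library was not tested. Of 71 values recomputed for the main results under other settings, 42 stayed within the interval or within 1.5-fold. With a 3 Mb window the regions numbered 706 in control and 666 after CXCL12, over 3.73 and 3.86 Mb with 513 shared loci, the median CXCL12 length was 3600 bp, and 1 locus was 2-fold higher and 0 lower. Restricted to regions at or above the median signal there were 761 and 742 regions and 572 shared loci. The median log2 ratio was 0.063 by the highest bin, 0.093 by summed signal, 0.045 at loci of matched length and −0.00739 after centring on all shared loci. Loci 2-fold higher and lower numbered 26 and 6 by summed signal, 1 and 2 after centring, 1 and 0 with a pseudocount of 1, 0 and 0 at matched length, and 24 and 27 at 1.5-fold. Those 2-fold higher numbered 4 by the highest bin and 1 without the extended blocks. At matched length 0 of 8466 loci elsewhere were 2-fold apart. Counts over all shared loci were not computed at 1.5-fold, after centring or with a pseudocount, so those counts have no background here. As a level, the median highest bin was 14 in control and 15 after CXCL12. Of the 10 largest and smallest named ratios, 7 had the other sign by summed signal, among them the 2-fold locus of chromosome 9 at 66461400 (−0.74), and 3 by the highest bin, among them NNT (0.17). Requiring an overlap of the shorter region by 50%, or counting any base inside the window, moved none of the values recomputed under them past these limits. Nor did leaving out chromosome 7 for the counts, medians, ratios and total lengths, but it took the share of length in regions of at least 20 kb from 25.7% to 14.1% in control and 13.6% after CXCL12. No paired analysis was possible because each group has 1 library.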

Other observations

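Near centromeres, single regions and the whole loci that hold them ranked differently. The highest mean signal of a control region was 38.6, over 47.2 kb at chromosome 21, 11103800 to 11150999, in the locus of BAGE and BAGE3. The CXCL12 region over it measured 77.6 kb and had a mean of 29.0, although the whole locus had 23.9 and 23.7. Near FLJ36000 on chromosome 17 a control region of 2000 bp had 35.3 and a CXCL12 region of 5400 bp had 18.4, while the locus had 17.7 and 18.4. On the long arm of chromosome 7 a CXCL12 region of 800 bp near LOC100132308 had 32.7, while the control region of 10600 bp over it had 14.54 and the locus 14.54 and 14.9.

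Domains were divided unequally at 139 of the 1002 shared pericentromeric loci. Control had more regions at 72 (7.19%) and CXCL12 at 67 (6.69%). Elsewhere on the same autosomes control had more at 1039 (5.45%) and CXCL12 at 731 (3.83%). These counts were not tested.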
